A study of Mus musculus with 13 samples.

Results

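The 9 genes described here encode the mouse DNA methylation machinery and the enzymes that undo it, namely Dnmt1 and Uhrf1 for maintenance, Dnmt3a, Dnmt3b and Dnmt3l for de novo methylation, and Tet1, Tet2, Tet3 and Tdg for oxidation and excision. They were taken by gene symbol from both tables of RNA-seq counts, which list 24421 genes each, and all 9 were found in both tables under the same RefSeq transcript. The cells were F1-2.1, a female mouse ES cell line from a CAST/Ei x 129/Sv/Jae cross, kept on irradiated mouse embryonic fibroblast (MEF) feeders with LIF and serum. All 4 libraries came from clone A2, which carries a Tet-on CTCF S224E transgene, a form of the chromatin protein CTCF in which glutamate stands in for phosphorylated serine. Of these, 2 were made from cells treated with doxycycline (dox) at 1 μg/mL for 6 days (+dox) and 2 from cells kept without it (-dox). The endogenous Ctcf gene is still present in both conditions. No +dox library without the transgene was analysed here, so effects of dox and of S224E cannot be told apart, and a single clone stands for the genotype. No RNA-seq library with a wild type CTCF transgene was analysed either. The substitution thus cannot be told apart from added CTCF or from the EGFP that the vector co-expresses.

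Methylation of cytosine in CpG dinucleotides helps to keep genes, transposons and imprinted alleles silent. After replication UHRF1 binds hemimethylated CpGs and brings in DNMT1, which copies the mark onto the new strand, while DNMT3A and DNMT3B add methyl groups at new sites with DNMT3L as a partner that has no catalytic activity of its own. TET dioxygenases oxidize 5-methylcytosine in steps that use 2-oxoglutarate, and the glycosylase TDG removes the last products so that base excision repair can restore plain cytosine. Mouse ES cells in serum are known for high levels of de novo enzymes and of TET1. RNA levels of these genes report neither enzyme activity nor the methylation of DNA, which was not measured in these libraries. Binding of CTCF itself is blocked by methylation at some of its sites.

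Counted reads ran from 22899107 to 30206085 per library. Of 14 ES cell marker genes, such as Pou5f1 and Sox2, all were detected in every library, with summed levels of 7782 and 8561 CPM with dox and 7039 and 7365 CPM without. CPM is a count scaled to its library's size after edgeR's TMM correction of that size. Of the 14 ES cell markers, 11 had estimates above 0 with dox and 3 below, with 0 called. All 15 fibroblast feeder markers had an estimate above 0 with dox, with a median log2 fold change of 1.38 and 0 called. Of the 15, 12 were higher in both +dox libraries than in both -dox libraries, as were 23.3% of all genes tested. The +dox replicate 1 stood apart, with a summed level of 919 CPM against 346 in +dox replicate 2 and 273 and 264 in the -dox libraries, and none of the 15 at 0 in any library. Summed fibroblast marker levels were thus higher in both +dox libraries, mostly in +dox replicate 1. Omission of that library lessens this gap, and what remains rests on +dox replicate 2 alone. Of 10 primitive streak markers 6 were called lower with dox, beside 0.599% of all genes called in either direction. The summed levels of the 10 were 39.1 and 39.0 CPM with dox and 163 and 189 CPM without. All 6 primed epiblast markers had estimates below 0, with summed levels of 325 and 289 CPM with dox and 389 and 414 CPM without. Of them 1, the growth factor gene Fgf5, was called by edgeR (log2 fold change -1.97, adjusted p-value 0.0029). DESeq2 gave Fgf5 an adjusted p-value of 0.0112 and did not call it. The part of these cell types in the results on the enzyme genes was not tested. In RNA from mixed cultures, fewer cells of a type and less RNA per cell cannot be told apart. Ctcf, whose count may pool the endogenous gene and the transgene, had a log2 fold change of 0.13 between conditions (edgeR adjusted p-value 0.475). The study found the glutamate codon in a minority of RNA-seq reads over the mutated position. Its authors took S224E RNA to be present without gross overexpression.

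No gene of the 9 was differentially expressed (DE) between +dox and -dox cells at the threshold used, an adjusted p-value under 0.01 in edgeR's quasi-likelihood test over 20044 genes. In that test 0.599% of all genes were called. DESeq2's Wald test also called 0 of the 9, against 2.71% of the genes to which it gave an adjusted p-value. At an adjusted p-value under 0.05 in edgeR there was 1 (Dnmt3l), where 2.86% of all genes passed. At an unadjusted p-value under 0.05, 2 of the 9 passed in edgeR (Dnmt3l and Tet3), where 17.8% of all genes did. In DESeq2 it was 1 of the 9, and 2608 of all genes. The log2 fold changes of the 9 genes ran from -0.31 for Tet3 to 0.40 for Dnmt3l, with 4 above 0 and 5 below. Their median was -0.027, beside a median of 0.0072 over all genes tested. CPM values of the +dox and -dox libraries did not overlap for 3 of the 9 genes, Dnmt3l (higher with dox), Uhrf1 and Tet3 (lower), which is 33.3% of the set. Over all genes tested this was so for 47% (23.3% higher and 23.7% lower with dox), and for 53.8% of those that averaged 1 CPM or more, as all 9 did, so the share among the enzymes was not above that of other genes.

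**Figure D1:**
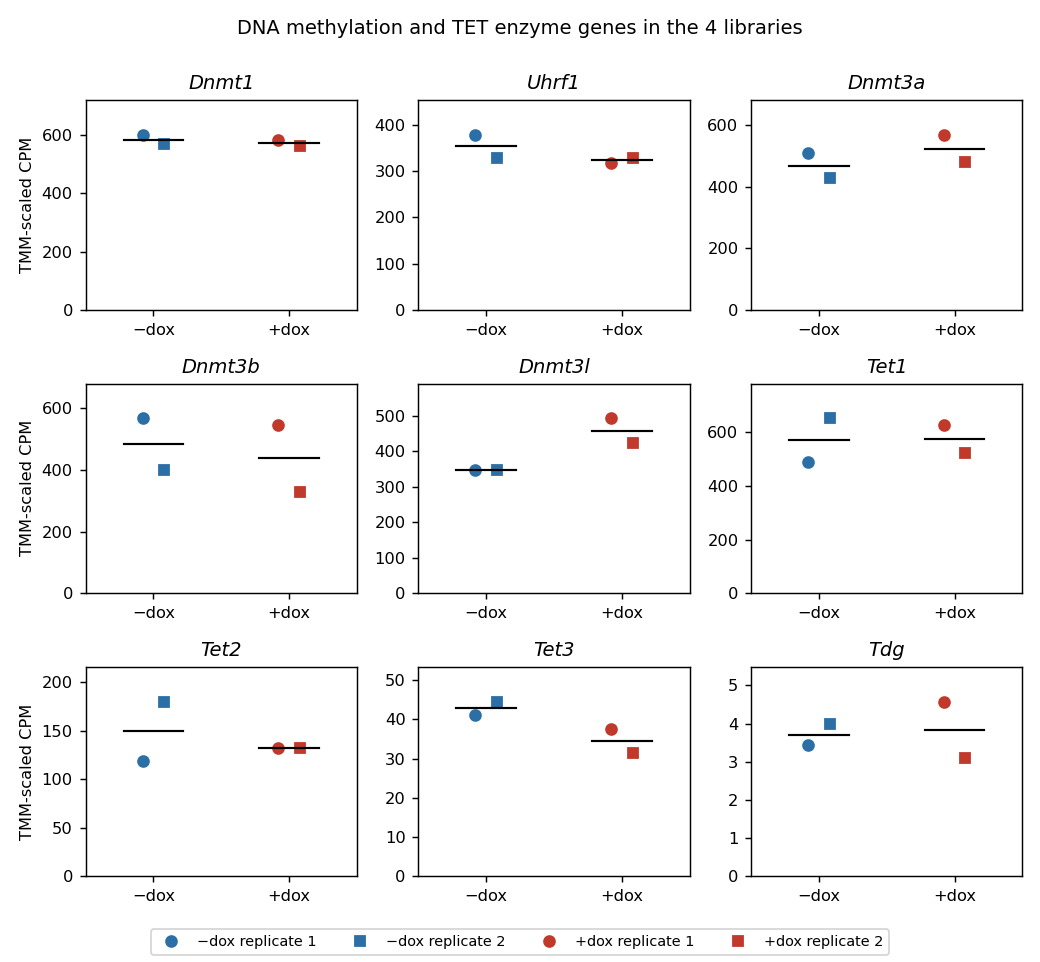
CPM (TMM-scaled, linear axes from 0) of the 9 genes in the 2 -dox (blue) and 2 +dox (red) libraries, with circles for replicate 1, squares for replicate 2 and a black bar for the mean of each condition. Dnmt3l is the gene whose +dox libraries (492 and 422 CPM) stand furthest above the -dox libraries (348 and 347 CPM), while in Dnmt3b both libraries of replicate 1 lie above both of replicate 2.

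Levels can be compared between genes only per length, and are given for this as RPKM, the TMM-scaled CPM divided by the kilobases of counted exon. Dnmt3l had the highest level of the 9, from 210.3 to 298 RPKM across the 4 libraries, above 99.1% of all genes tested. Dnmt1 (105 to 112 RPKM), Dnmt3b (76.6 to 132 RPKM) and Uhrf1 (89.6 to 106 RPKM) followed, and the ranges of these neighbors overlapped. Dnmt3a, at 44.1 to 58.4 RPKM, lay below all 3 and overlapped with Tet1 (34.8 to 46.3 RPKM). Tet2 came next with 12.9 to 19.7 RPKM, separate from Tet1 above it and from Tet3 below it (2.89 to 4.08 RPKM). Tdg had the lowest value, at 0.97 to 1.43 RPKM. Only unique reads were counted, and 93.8% of 50-base windows of Tdg and 29.7% of those of Uhrf1 recur elsewhere in the genome. The place of Tdg in this order thus does not give its RNA level, and that of Uhrf1 is uncertain. The counts follow 1 transcript per gene, so a shift between isoforms would not be seen as such. Dnmt3a, for instance, was counted on its long transcript, while ES cells are known to make mainly a shorter form from an internal start that shares most of its exons.

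**Figure D2:**
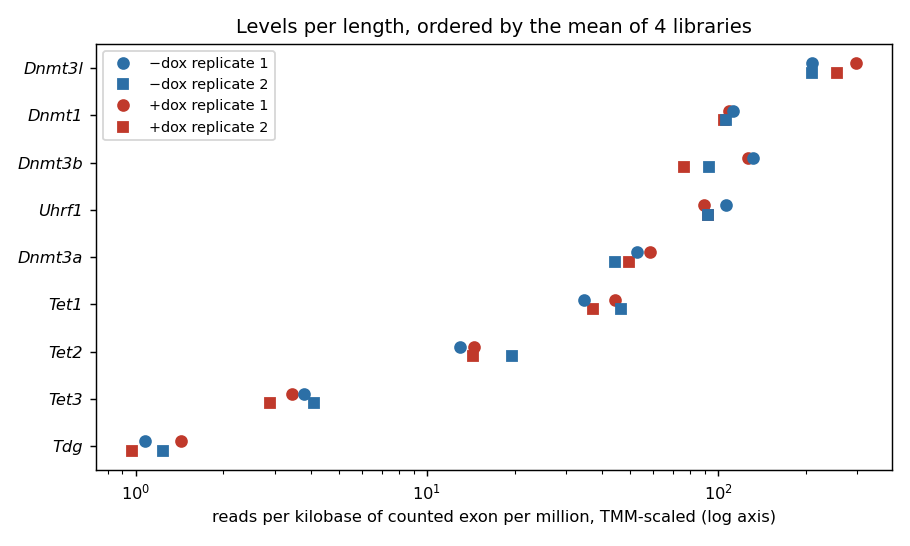
Levels per length (RPKM, log axis) of the 9 genes in each library, ordered by the mean of the 4 libraries, with -dox in blue, +dox in red, circles for replicate 1 and squares for replicate 2. Dnmt3l lies clear of the other genes at 210.3 to 298, and Dnmt1, Dnmt3b and Uhrf1 overlap. Tdg has the lowest values, at 0.97 to 1.43. Most of its transcript is not unique in the genome, so they do not give its RNA level.

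The maintenance genes had the smallest standard errors (SE) of the 9. Dnmt1 (chromosome 9, 20711650 to 20757423, minus strand, in mm9, the genome build of the counts) encodes the maintenance methyltransferase. It had 583 and 560 CPM with dox and 598 and 567 CPM without, so that the 4 libraries interleaved. The fitted log2 fold change was -0.027 (SE 0.083), and the 95% interval of the change ran from -13.4% to 11.3% (adjusted p-value 0.903 from edgeR). Uhrf1 (chromosome 17, 56442760 to 56462909, plus strand) encodes the factor that recruits DNMT1. It had 318 and 328.2 CPM with dox and 377 and 328.7 CPM without. The groups just failed to overlap, since +dox replicate 2 and -dox replicate 2 were nearly equal and the gap came from replicate 1. The log2 fold change of Uhrf1 was -0.13 (SE 0.094, adjusted p-value 0.540 from edgeR), or -0.25 within replicate 1 and -0.0020 within replicate 2.

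Among the de novo genes, Dnmt3l carried the largest estimate of all 9 genes, and the sequences before the starts of the counted transcripts are shown for it and its catalytic partners, since CpG dinucleotides (in capitals, both strands read alike) are what these enzymes act on. Each is the 250 bases upstream of the start in mm9, 5′ to 3′ on the strand of the gene, read from the reference genome of that build. Dnmt3l lies at chr10:77512454-77512703 (plus strand), Dnmt3b at chr2:153474935-153475184 (plus strand) and Dnmt3a at chr12:3806730-3806979 (plus strand).
Dnmt3l: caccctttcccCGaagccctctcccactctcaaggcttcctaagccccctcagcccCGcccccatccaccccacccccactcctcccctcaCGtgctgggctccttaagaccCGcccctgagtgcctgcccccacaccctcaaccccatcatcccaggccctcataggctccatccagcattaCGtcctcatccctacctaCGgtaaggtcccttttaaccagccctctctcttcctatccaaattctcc
Dnmt3b: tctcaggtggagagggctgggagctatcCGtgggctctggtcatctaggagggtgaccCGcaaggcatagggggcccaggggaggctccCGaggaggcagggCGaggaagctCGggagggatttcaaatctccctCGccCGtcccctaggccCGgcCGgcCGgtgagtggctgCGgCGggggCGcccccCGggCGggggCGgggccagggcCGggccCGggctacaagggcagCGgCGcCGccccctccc
Dnmt3a: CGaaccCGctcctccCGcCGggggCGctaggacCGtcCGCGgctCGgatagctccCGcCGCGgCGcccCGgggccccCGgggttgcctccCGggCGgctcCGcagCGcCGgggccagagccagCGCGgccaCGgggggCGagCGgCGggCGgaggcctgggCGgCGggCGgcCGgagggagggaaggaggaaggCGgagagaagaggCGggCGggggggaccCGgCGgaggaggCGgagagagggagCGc
The window of Dnmt3l holds 6 CpGs, that of Dnmt3b 21 and that of Dnmt3a 38. Over the 24346 such windows of all listed genes the median was 9 CpGs (quartiles 3 and 19), and 93% held at least 1. Dnmt3l was thus at the 40.9th percentile and Dnmt3a at the 97.7th. Among the other genes, the window of Tet2 held the most CpGs (51) and that of Tet1 the fewest (2). These windows belong to the counted transcripts, and other starts of the same genes were not examined.

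Dnmt3l (chromosome 10, 77512704 to 77526367, plus strand) had 492 CPM in +dox replicate 1, 422 CPM in +dox replicate 2, 348 CPM in -dox replicate 1 and 347 CPM in -dox replicate 2. Both +dox libraries were above both -dox libraries, and the -dox libraries differed by less than the +dox libraries did. The +dox mean was 457 ± 49.5 CPM (SD, n = 2) and the -dox mean 347 ± 0.75 CPM (SD, n = 2). The level was 1.32-fold higher with dox, with a 95% interval from 1.14 to 1.52. The log2 fold change was 0.40 (SE 0.095), or 0.50 within replicate 1 and 0.28 within replicate 2. This did not pass the threshold of 0.01, with adjusted p-values of 0.0455 from edgeR and 0.0117 from DESeq2. Omission of a +dox library leaves 1 against 2 -dox libraries, so that the spread of a gene between replicates comes from the -dox pair alone, moderated over all genes, and the lone library is assumed to vary likewise. Without +dox replicate 1, the library with the highest summed fibroblast markers, the log2 fold change was 0.28. Without +dox replicate 2 it was 0.50, in a fit that rests on -dox libraries only 0.75 CPM (SD) apart. With the spread taken from the +dox pair instead, it was 0.40 without -dox replicate 1 and 0.39 without -dox replicate 2. The summed ES cell markers were also higher with dox, as given above, and their part and that of the fibroblast and primed epiblast markers in the estimate of Dnmt3l were not tested.

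Dnmt3a (chromosome 12, 3806980 to 3914443, plus strand), a catalytic de novo enzyme, had 567 and 480 CPM with dox and 510 and 428 CPM without. Within each replicate the +dox library was higher, by 0.15 and 0.17 on the log2 scale, but the groups overlapped, and the fitted log2 fold change was 0.16 (SE 0.11, adjusted p-value 0.495 from edgeR). It was 0.032 without +dox replicate 1, 0.038 without -dox replicate 2, 0.27 without +dox replicate 2 and 0.29 without -dox replicate 1. An annotated noncoding gene on the opposite strand, Gm10485, shares 133 exon bases with Dnmt3a. Dnmt3b (chromosome 2, 153475185 to 153513466, plus strand), the other catalytic enzyme, had the largest gap of the 9 genes between replicate numbers. It had 545 and 329 CPM with dox and 567 and 399 CPM without. Both libraries of replicate 1 were above both of replicate 2, by 0.62 on the log2 CPM scale on average, while the gap between +dox and -dox was 0.17. In 6 of the 9 genes the gap between replicate numbers was the larger of these, Dnmt3a among them (0.25 against 0.16). The log2 fold change of Dnmt3b was -0.14 with a wide 95% interval, from -0.57 to 0.28 (adjusted p-value 0.735 from edgeR). Its direction and call depended on single libraries. Without +dox replicate 1 the log2 fold change was -0.55 (adjusted p-value 1.47e-04 from edgeR), and without +dox replicate 2 it was 0.17. In the first of these fits the lone +dox library is of replicate 2, which was lower in both conditions, and the spread again comes from the -dox pair alone, so the gap between replicate numbers is not set apart from dox.

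Relative to its partners, Dnmt3l RNA was higher in both +dox libraries than in both -dox libraries, on a measure that needs no scaling between libraries. Per length, the ratio of Dnmt3l to Dnmt3a was 5.11 and 5.17 with dox and 4.02 and 4.77 without. The ratio of Dnmt3l to Dnmt3b was 2.35 and 3.34 with dox and 1.6 and 2.26 without. The last separation was narrow (2.35 against 2.26), and in both conditions the ratio to Dnmt3b was higher in replicate 2, where Dnmt3b was lower. How often ratios of other genes separate in this way was not computed, and CPM values of 47% of single genes did not overlap. These ratios share the Dnmt3l counts with the comparison above and add no further replicates. With 2 libraries against 2, an exact permutation test of such a ratio cannot give a two-sided p-value below 0.333, and none was run.

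The TET genes encode the dioxygenases that start demethylation. Tet1 (chromosome 10, 62267318 to 62342762, minus strand) had 625 and 523 CPM with dox and 489 and 651 CPM without. The 2 replicates went opposite ways, with a log2 ratio of 0.35 within replicate 1 and -0.32 within replicate 2, and the fitted log2 fold change was 0.0095 (SE 0.13, adjusted p-value 0.974 from edgeR). The 95% interval of the change of Tet1, from -16.9% to 21.9%, leaves room for a moderate change in either direction. Tet2 (chromosome 3, 133126641 to 133207354, minus strand) had 133 and 132 CPM with dox and 119 and 180.2 CPM without. Its +dox libraries were nearly equal and lay between the -dox libraries, so that the log2 ratio was 0.16 within replicate 1 and -0.44 within replicate 2 (fitted log2 fold change -0.17, SE 0.15, adjusted p-value 0.623 from edgeR). Tet3 (chromosome 6, 83312368 to 83391672, minus strand) had the lowest log2 fold change of the 9 genes, at 37.4 and 31.5 CPM with dox and 41.1 and 44.5 CPM without. Both +dox libraries were below both -dox libraries, with a 0.81-fold level (95% interval 0.66 to 0.99). The log2 fold change of Tet3 was -0.31 (SE 0.14), which edgeR gave an unadjusted p-value of 0.0394 and 0.248 after adjustment. Per length, Tet1 made up 71.3% and 68.2% of the summed TET level with dox and 67.5% and 66.1% without, Tet2 23.2% to 28.1% across the 4 libraries and Tet3 5.31% to 7.33%.

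**Figure D3:**
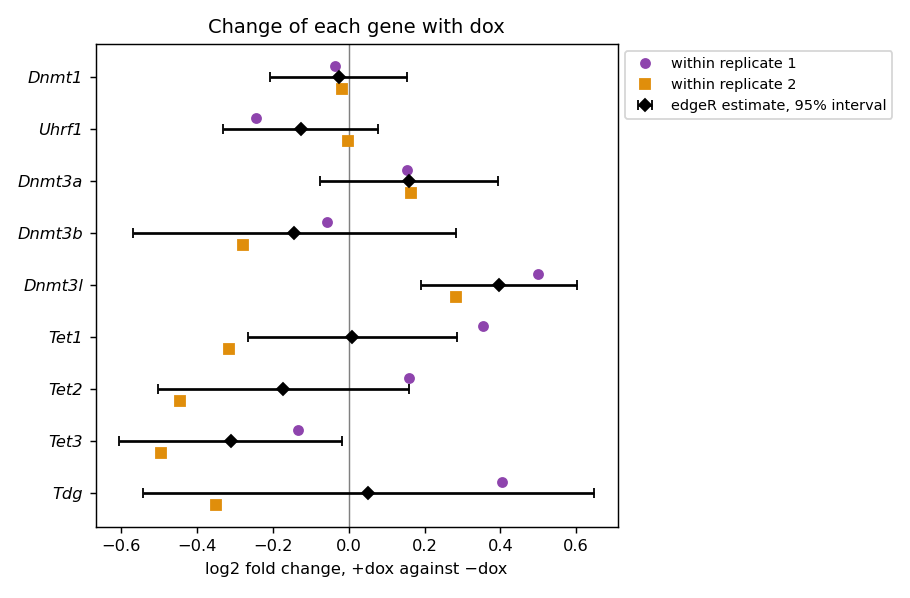
Log2 fold change of each gene, +dox against -dox, as edgeR's estimate with its 95% interval (black diamonds and bars) and as the log2 ratio within replicate 1 (purple circles) and within replicate 2 (orange squares). The interval lies above 0 for Dnmt3l (0.19 to 0.60) and below 0 for Tet3 (-0.61 to -0.018), neither gene passes the adjusted threshold, and Tet1, Tet2 and Tdg have opposite signs in the 2 replicates.

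Tdg (chromosome 10, 82092583 to 82113239, plus strand) encodes thymine DNA glycosylase, which excises the oxidized bases that TET enzymes make. It was counted with 103 and 71 reads with dox and 105 and 100 reads without, far fewer than any other of the 9 genes. This was 4.58 and 3.11 CPM with dox and 3.44 and 3.99 CPM without, with the groups interleaved and a log2 fold change of 0.051 (95% interval -0.54 to 0.65, adjusted p-value 0.950 from edgeR). The count holds only reads that aligned uniquely, and most of the Tdg transcript is not unique in mm9. Of its 2910 windows of 50 bases, the length of a single read, 93.8% also occurred outside the gene. The 4 regions with at least 50 of these windows were on chromosome 7 (83388075 to 83390857), chromosome 10 (41772364 to 41775273), chromosome 15 (82346946 to 82349711) and chromosome 19 (33746768 to 33748522). To show both kinds, windows of the coding sequence that lie within a single exon are given, 5′ to 3′ on the plus strand of mm9. They are the first such window that also occurs on all 4 of these chromosomes (chr10:82110767-82110816, exon 9 of 10) and the first that occurs once (chr10:82101543-82101592, exon 2).
Tdg, found elsewhere: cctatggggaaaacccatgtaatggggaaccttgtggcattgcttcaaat
Tdg, found once: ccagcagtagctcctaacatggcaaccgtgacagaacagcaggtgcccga
The Tdg values above therefore rest on a small part of the transcript and on any pair with 1 unique mate, and the level of Tdg RNA cannot be read from them. In addition 367 exon bases of Tdg are shared with Glt8d2 on the opposite strand, and whether the counting used strand is not stated in the sources used here.

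The same search gave 29.7% of windows for Uhrf1, of which the bulk matched 1 region of chromosome X (118447609 to 118450185), and 8.04% for Dnmt3b, which matched a region of chromosome 2 near the gene (153539247 to 153553082). For Tet2, Tet1 and Tet3 the shares were 0.635%, 0.215% and 0.092%, and for Dnmt1, Dnmt3a and Dnmt3l no window recurred. Reads from such windows have no unique place of their own in the genome, which bears on the order of levels between genes. The comparison between conditions counts the same places in each library.

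**Figure D4:**
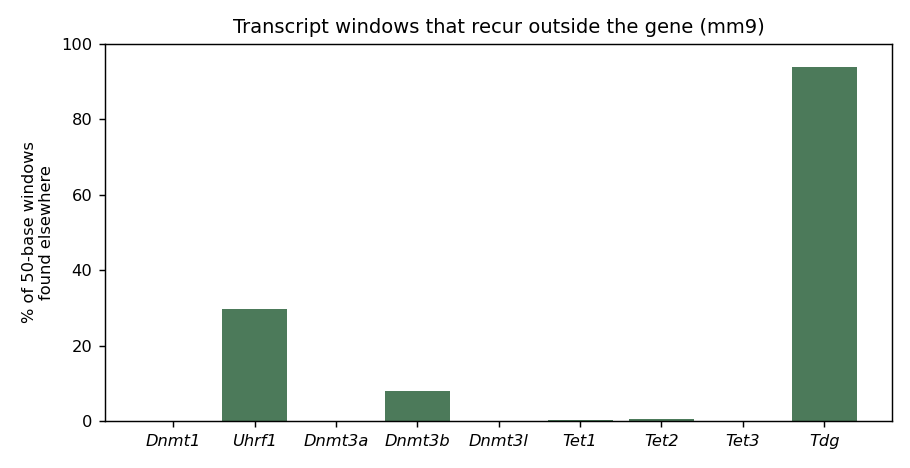
Share of the 50-base windows of each gene's annotated transcript that also occur elsewhere in the mm9 genome (percent, linear axis from 0 to 100). Tdg stands at 93.8%, Uhrf1 at 29.7% and Dnmt3b at 8.04%, and the other 6 genes are below 1%.

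The wider pathway was read from 6 lists of related genes, in which edgeR called no gene at an adjusted p-value under 0.01, beside 0.599% of all genes. The counts given for each list at an unadjusted p-value under 0.05 stand beside 17.8% of all genes. Of 11 recruiters and remodelers, which bring methylation to imprinted and repeat sequences or open chromatin for it, 4 had estimates above 0 and 7 below, with a median log2 fold change of -0.026, and 2 had an unadjusted p-value under 0.05. Zfp57, a zinc finger protein that keeps imprinted alleles methylated, had the highest estimate of this list, with 366 and 484 CPM with dox and 275 and 332 CPM without (log2 fold change 0.49, SE 0.13, adjusted p-value 0.0692 from edgeR). The lowest was that of Uhrf2, the paralog of Uhrf1 (log2 fold change -0.16, adjusted p-value 0.444 from edgeR). Trim28, the corepressor that ZFP57 recruits, was chosen after its values were seen. It had 2387 and 2409 CPM with dox and 1918 and 1837 CPM without, and its log2 fold change of 0.35 came with adjusted p-values of 0.0296 in edgeR and 0.00472 in DESeq2, which called it.

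Of 8 genes of the methyl-CpG binding families, which include the readers of the mark, 5 had estimates above 0 and 3 below (median 0.066), 3 with an unadjusted p-value under 0.05. Zbtb4, a methyl-CpG binding zinc finger gene, had the highest, at 15.2 and 8.01 CPM with dox and 6.91 and 7.53 CPM without. Its estimate of 0.68 (adjusted p-value 0.198 from edgeR) thus came mainly from +dox replicate 1, the library with the highest summed fibroblast markers. Zbtb33, which encodes the reader Kaiso, had the lowest, with a log2 fold change of -0.48 (adjusted p-value 0.140 from edgeR). Base excision repair completes TET-driven demethylation, and of 11 such genes 6 had estimates above 0 and 5 below (median 0.012), 4 with an unadjusted p-value under 0.05. Apex1, the endonuclease that cuts at abasic sites, had 338 and 354 CPM with dox and 278 and 274 CPM without (log2 fold change 0.33, adjusted p-value 0.0647 from edgeR), and the glycosylase gene Neil3 had a log2 fold change of -0.58 (adjusted p-value 0.161 from edgeR) from levels under 10 CPM.

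Of 9 regulators of the enzymes, 3 had estimates above 0 and 6 below (median -0.17), 4 with an unadjusted p-value under 0.05. Cxxc1, which binds unmethylated CpGs as part of a histone H3K4 methyltransferase complex, had a log2 fold change of 0.34 (adjusted p-value 0.0764 from edgeR), and Kdm1b, a histone demethylase needed for maternal imprints, had -0.41 (adjusted p-value 0.177 from edgeR). Of 7 genes that supply the methyl donor or 2-oxoglutarate, 2 had estimates above 0 and 5 below (median -0.12), 2 with an unadjusted p-value under 0.05. Idh2, a mitochondrial enzyme that makes 2-oxoglutarate, had 126 and 160 CPM with dox and 189 and 196 CPM without (log2 fold change -0.43, adjusted p-value 0.0665 from edgeR), and Mat2a, which makes S-adenosylmethionine, had 0.23 (adjusted p-value 0.193 from edgeR). Of 10 germline genes that DNA methylation is known to keep silent in somatic cells, 8 had estimates above 0 and 2 below (median 0.24), 3 with an unadjusted p-value under 0.05. Among the 9 with a mean of at least 1 CPM they ran from -0.67 for Sycp3, a component of the synaptonemal complex (adjusted p-value 0.0771 from edgeR), to 0.63 for Tex101, a germ cell surface protein gene at about 1 to 2 CPM (adjusted p-value 0.356 from edgeR).

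**Figure D5:**
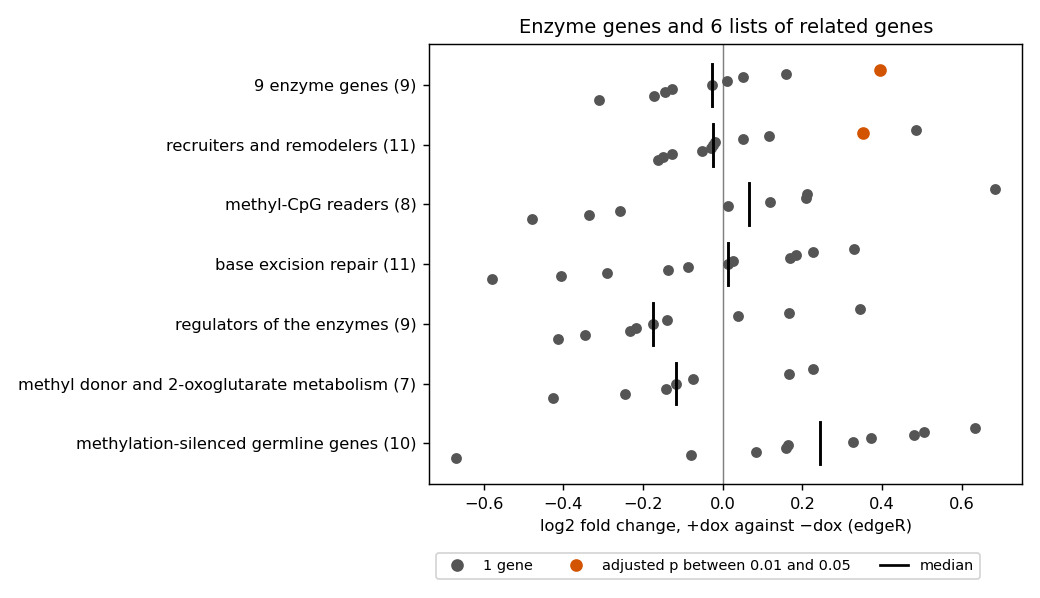
Log2 fold changes (edgeR, +dox against -dox) of the 9 enzyme genes and of the genes of 6 related lists, 1 point per gene, with list sizes in parentheses and a black bar at each median. No gene has an adjusted p-value under 0.01 in edgeR, and the orange points, Dnmt3l and Trim28, lie between 0.01 and 0.05. DESeq2 called Trim28 alone. It gave adjusted p-values under 0.05 to further list genes, such as Zfp57 (0.0237), Apex1 (0.0217), Cxxc1 (0.0378), Idh2 (0.0340) and Sycp3 (0.0492).

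Among 9969 other genes that averaged 10 CPM or more, the profile over the 4 libraries most like that of Dnmt3l was that of Prune2, with a root mean square difference of 0.014 between mean-centered log2 CPM values. Slc16a6 followed with 0.027 and Pcdhgb2 with 0.030, the last a member of a clustered family whose transcripts share exons, so that its count is uncertain. Since 269 genes lay within 0.1 of Dnmt3l on this measure, likeness over 4 libraries singled out few of them.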

How the data were processed

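Polyadenylated RNA of 2 +dox and 2 -dox cultures was sequenced as 50-nt pairs. The authors used cutadapt for trimming, TopHat2 for alignment to mm9 and HOMER for counting unique exonic reads of each gene after duplicate removal, and deposited these raw counts, not normalized, in 1 table per replicate number. Versions and the use of strand are not given in the sources used here. The tables were joined by symbol.

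The 20044 genes counted at least once in any library were tested by quasi-likelihood in edgeR 4.0.16 (run in R 4.3.3, TMM scaling, package defaults, condition as the sole factor). Benjamini-Hochberg adjustment covered all of these genes, with a threshold of 0.01. DESeq2 1.42.0, the study's tool, was an alternative, as were other scalings, filters and thresholds and the omission of each library. The study calls the replicates biological, with no more detail, so p-values measure the spread between these libraries. Log2 ratios within a replicate used a prior count of 2. SEs came from the test statistic. Replicates of a condition differed by more than counting noise (chi-square per degree of freedom of 19.2 for +dox and 13.2 for -dox over 13911 genes).

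The 9 genes and the lists were chosen with earlier results of these data known. The genes named are the 9, those of each related list past the threshold or else with its highest and lowest estimate at a mean of at least 1 CPM, Ctcf, and the 3 profiles most like that of the gene with the largest change. Trim28 and Fgf5 were named after their values were seen, and Pou5f1 and Sox2 stand only as examples of a marker list. Windows of 50 bases were taken from the GENCODE vM1 coding transcript closest in length to the counted one and sought on both strands of NCBIM37 (mm9), requiring an exact match more than 5 kb from the gene. The fits were tested on simulated data with known fold changes. The ChIP-seq and Hi-C samples were not analysed here.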

Additional observations from a re-analysis of the deposited data

How the results depend on the processing

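The count of DE genes varied widely with the processing (120 with the settings of the report). It was 375 with DESeq2, 457 with edgeR's likelihood ratio test, 11 with filterByExpr, 573 at an adjusted p-value under 0.05, 786 with the replicate block and 0 with deviances adjusted for small counts (3254 genes at an unadjusted p-value under 0.05), and 0 to 992 when 1 library was left out (992 without +dox replicate 1, 877 without +dox replicate 2 and 0 without -dox replicate 1 or -dox replicate 2, where 1753 and 1450 genes had an unadjusted p-value under 0.05). Of the 9 enzyme genes, 0 were called under each other scaling, filter and test, and 1 (Dnmt3l) at an adjusted p-value under 0.05 and with the replicate block (adjusted p-value 0.00248 from edgeR, log2 fold change 0.39). The pass of Dnmt3l at 0.05 depended on the settings. Its adjusted p-value was also under 0.05 in DESeq2, in edgeR's likelihood ratio test and in edgeR with DESeq2 size factors. In edgeR it was above 0.05 with total counts, with filterByExpr, with no filter and with deviances adjusted for small counts. Libraries with the same replicate number deviated together only weakly (correlation across genes 0.196), and the labels do not say what the number marks. Leaving out 1 library gave 0 to 1 called enzyme genes (Dnmt3b without +dox replicate 1, Dnmt3l without +dox replicate 2) and medians of the 9 from -0.13 to 0.13. Of the recruiters and remodelers, 1 gene was called by DESeq2 and at 0.05, and 2 with the replicate block, which also called 1 gene of methyl donor and 2-oxoglutarate metabolism. In some of the lists, calls also changed when 1 library was left out. The log2 fold change of Tet1 was -0.035 with total counts. Some estimates changed sign when 1 library was left out. Over the 4 omissions Dnmt1 ranged from -0.066 to 0.013, Dnmt3b from -0.55 to 0.17, Tet1 from -0.18 to 0.23, Tet2 from -0.44 to 0.16 and Tdg from -0.25 to 0.30. The range was 0.28 to 0.50 for Dnmt3l, 0.032 to 0.29 for Dnmt3a, -0.22 to -0.024 for Uhrf1 and -0.44 to -0.19 for Tet3, with no change of sign. In each omission 1 library stands alone in its condition and is assumed to vary like the others. The causes were not tested.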
